A study of Homo sapiens with 4 samples.

Results

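Messenger RNA of 40 genes was followed in 2 drug-treated and 2 control libraries of PLC8024, an established line of human liver cancer cells. The set holds MYC and 39 proteins that make ribosomes, taken by gene symbol from a table of 26603 genes, and all 40 symbols had a row. By textbook role, 6 belong to RNA polymerase I (Pol I) transcription, 15 to assembly of the small ribosomal subunit, 13 to assembly of the large subunit and 5 are abundant nucleolar proteins with several roles. Which drug was given, at what dose and for how long is not in the labels, nor is what the control cells received, and every library comes from the same line. Whether each library had its own culture is not labelled either, and p-values therefore describe the spread among these 4 libraries alone. Levels are in FPKM, by definition fragments relative to the gene's exon length and to all fragments counted in the library. Whether fragments or single reads were counted is not given in the sources used here.

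Ribosome production starts in the nucleolus, where Pol I copies the ribosomal RNA genes into a long precursor. Proteins and small nucleolar RNAs gather on this precursor as it is made, and helicases, nucleases, GTPases and RNA-modifying enzymes then cut it and fold it into the precursors of the small and large subunits. The transcription factor MYC, which binds E-box sequences (CACGTG) with its partner MAX, is known to drive many of these genes, and ribosome production is commonly raised in tumour cells, those of the liver included.

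With drug, 6 of the genes rose by small amounts and 0 fell in the reported fit, and of these UBTF alone was called under every alternative analysis. The genes called higher were UBTF and POLR1E of the Pol I class, BYSL and WDR43 of the small subunit class, and NOP16 and EBNA1BP2 of the large subunit class. Their mean levels were between 9.17% and 23.5% above control. MYC did not pass the test. Calls come from limma (trend) on log2(FPKM + 1) over the 11227 genes whose mean reached 1 FPKM in either group, with Benjamini-Hochberg adjustment over all of them and a threshold of 0.05. Of the 40 genes, 38 were tested, and the lowest group mean among these was 3.79 FPKM, so the filter did not turn on either group.

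The 6 genes called higher are 15.8% of the 38 tested, while 7.78% of all genes tested were called higher. The 0 called lower stand beside 6.02% of all genes tested. The shares here are not matched for level. In control the median was 21.1 FPKM over the 38 genes and 6.24 FPKM over all genes tested. The members were also chosen with earlier results of these data known. At an unadjusted p under 0.05, limma gave 19 of the 38 higher (against 21.0% of all genes tested) and 0 lower (against 12.1%). On recovered reads, edgeR called 4 of the 38 higher (10.5%, against 8.37% of all genes tested) and 0 lower (against 11.0%). DESeq2 called 2 of the 38 higher (5.26%), a share below its 6.81% of all genes tested, and 0 lower (against 9.84%). Both drug libraries lay above both control libraries in 28 of the 38 genes (73.7%), against 40.3% of all genes tested. Both drug libraries lay below both control libraries in 2 genes, DDX21 and RRP1B (5.26%), against 23.3% of all genes tested. These counts, and those by class below, use FPKM as deposited, with no further scaling between libraries. TMM scaling factors were 0.9986 and 1.0217 in the drug libraries, against 0.9932 and 0.9869 in control. The counts were not repeated after such scaling. The median log2 fold change was 0.09 over the 38 genes and 0.04 over all genes tested, so the whole table stood slightly above 0. On the FPKM + 1 scale a log2 fold change understates the change of low genes. In bulk RNA, fewer cells with a transcript and less of it per cell cannot be told apart.

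**Figure D1:**
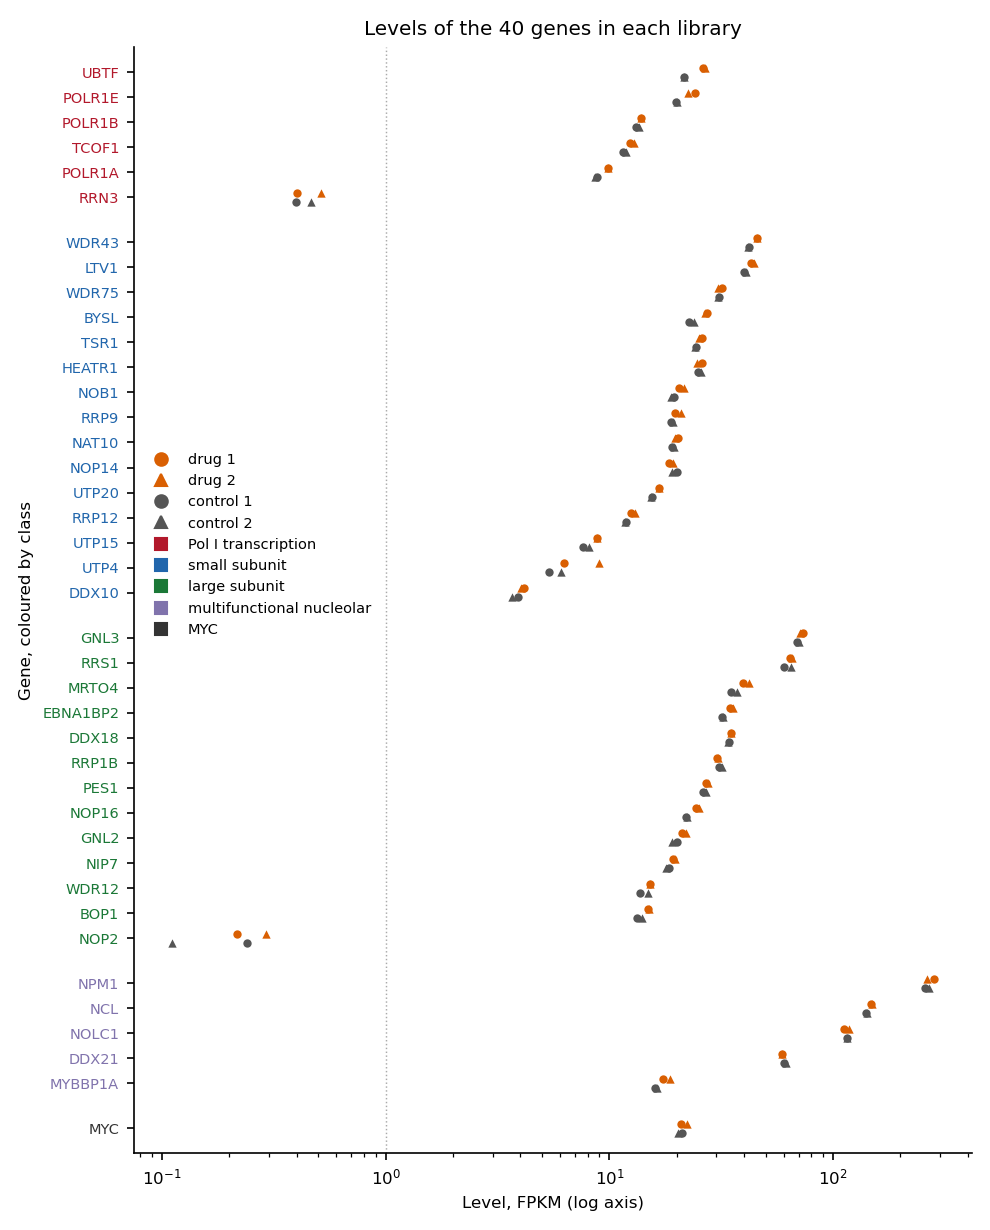
Level of each gene in FPKM on a log axis in the 2 drug libraries (orange, upper of each pair) and the 2 control libraries (grey, lower), with genes grouped by class and ordered by level within it; the dotted line marks 1 FPKM. RRN3 and NOP2 lie left of that line in every library, and NPM1 has the highest level, with a mean of 272 FPKM with drug and 264 FPKM in control.

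The promoters of these genes are shown first, because the E-box is the sequence that MYC is known to bind. In the RefSeq promoter table (GRCh38.p14), which gives 250 bases before and 50 after each start, 31 of the 40 genes had an entry. The E-box CACGTG, which reads the same on both strands and was the sole motif searched, occurred in 16 of these 31 (51.6%). It occurred in 1063 of 8211 genes tested that have an entry (12.9%), and in 2396 of 27305 genes of the whole promoter table (8.77%). By class, the E-box was in 8 of 14 small subunit genes (57.1%), 6 of 9 large subunit genes (66.7%), 2 of 4 multifunctional nucleolar genes and 0 of 4 Pol I genes. The lines below show 26-base stretches around the motif, fewer where the promoter window ends, written 5′ to 3′ on the gene's strand with the motif in capitals. BYSL, WDR43 and EBNA1BP2 are given because they were called higher with drug, and the others to show the classes and both sides of the start.
BYSL, plus strand, chr6:41921517-41921542: cttcagtcccCACGTGcgatccttcc
WDR43, plus strand, chr2:28894660-28894685: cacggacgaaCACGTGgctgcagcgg
EBNA1BP2, minus strand, chr1:43172241-43172258: gattcggtggCACGTGga
EBNA1BP2, minus strand, chr1:43172792-43172817: tattgttggcCACGTGggatcgaaga
LTV1, plus strand, chr6:143843356-143843381: cctggggctgCACGTGtggtgaggcc
NAT10, plus strand, chr11:34105604-34105629: tgcgcttgcgCACGTGctgtctacca
UTP20, plus strand, chr12:101280085-101280110: tttttccgtcCACGTGacccactcag
GNL3, plus strand, chr3:52686028-52686053: cttcagttcaCACGTGgcgccagcgg
PES1, minus strand, chr22:30591882-30591907: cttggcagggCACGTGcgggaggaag
MYBBP1A, minus strand, chr17:4555342-4555367: ggccggagcaCACGTGtttcgtgttt
DDX21, plus strand, chr10:68956606-68956631: ccgggtgtccCACGTGgtccccggcg

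A match describes these letters and does not show that a protein binds there. The flanks of the motif differed from gene to gene, so the stretches were not copies of each other outside the capitals. The 16 genes held 17 sites, since EBNA1BP2 has 1 in each of 2 promoter entries. Counted by their first base, 11 of the 17 sites (64.7%) lay downstream of the start, against 132 of 1239 sites (10.7%) in the genes tested. Apart from an EBNA1BP2 site at -237, the sites lay between -31 (DDX21) and +43 (EBNA1BP2) relative to the start. The whole promoters of 2 genes follow, that of BYSL, with its E-box near the end, and that of UBTF, the gene with the smallest adjusted p of the set, which holds none in this entry or in its other one.
BYSL promoter, plus strand, chr6:41921249-41921548: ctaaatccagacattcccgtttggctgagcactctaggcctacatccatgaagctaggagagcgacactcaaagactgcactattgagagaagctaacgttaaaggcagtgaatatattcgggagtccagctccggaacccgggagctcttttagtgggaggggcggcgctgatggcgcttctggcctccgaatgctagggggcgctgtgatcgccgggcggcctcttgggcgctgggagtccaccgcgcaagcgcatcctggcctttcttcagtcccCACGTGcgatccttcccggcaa
UBTF promoter, minus strand, chr17:44220833-44221132: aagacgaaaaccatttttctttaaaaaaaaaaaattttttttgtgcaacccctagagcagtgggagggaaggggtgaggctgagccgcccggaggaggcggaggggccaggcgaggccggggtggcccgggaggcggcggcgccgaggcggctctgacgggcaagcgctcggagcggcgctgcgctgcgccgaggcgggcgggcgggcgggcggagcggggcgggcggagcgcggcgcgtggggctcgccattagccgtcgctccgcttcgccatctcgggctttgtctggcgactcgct

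Genes that rose and genes that did not both included carriers of the E-box. It was found in 3 of the 5 genes called higher that have an entry (BYSL, WDR43 and EBNA1BP2) and in 12 of the 24 genes tested and not called. The median log2 fold change was 0.11 over 15 tested genes with the motif and 0.08 over 14 without it. Among genes outside the set, it occurred in 1 of 15 other Pol I genes, 13 of 36 other small subunit factors and 11 of 42 other large subunit factors. The E-box was also in 10 of 15 known MYC targets outside ribosome production (66.7%) and in 3 of 11 partners and rivals of MYC (27.3%).

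**Figure D2:**
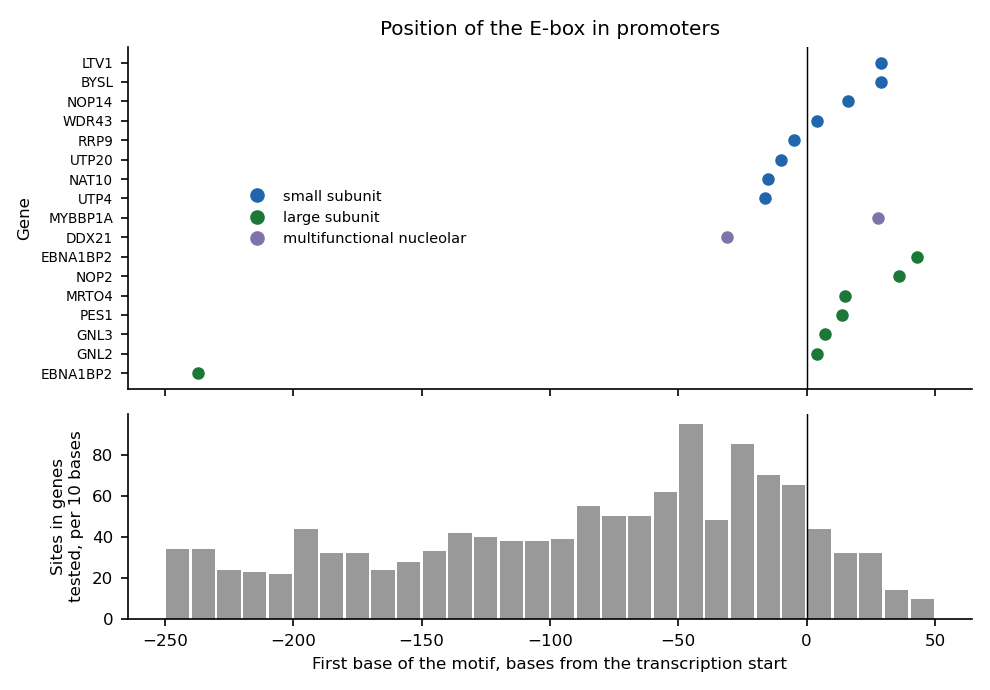
Position of the first base of CACGTG relative to the transcription start, for the 17 sites of the set (upper panel, coloured by class) and for 1239 sites in the promoters of genes tested (lower panel, sites per 10 bases). In the set, 11 of the 17 sites lie right of the start, whereas most sites of the genes tested lie left of it.

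The Pol I class had the largest median difference of the classes, at 0.15 on the log2 scale over its 5 tested genes. On FPKM as deposited, both drug libraries were above both controls in each of the 5, against 40.3% of all genes tested. For POLR1B the margin was narrow (13.79 FPKM in drug library 2 against 13.53 FPKM in control library 2). Its log2 fold change was 0.02 with TMM-scaled FPKM. UBTF, the factor that coats active ribosomal RNA genes and helps Pol I start, lies on chromosome 17 from 44205033 to 44221626 on the minus strand. Its levels were 26.3 and 26.8 FPKM with drug, against 21.4 and 21.6 FPKM in control. The 4 libraries did not overlap, and the gap between groups was many times the gap within either. The mean was 23.5% higher with drug (log2 fold change 0.29, SE 0.03, limma adjusted p = 0.00749). UBTF was the sole gene of the set called higher in every one of the 10 alternative analyses, with adjusted p between 5.54e-08 and 0.0477 and log2 fold changes between 0.26 and 0.31.

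POLR1E, a Pol I subunit that takes part in initiation, had 24.0 and 22.5 FPKM with drug, against 19.8 and 20.1 FPKM in control. The groups did not overlap, and the mean was 16.7% higher with drug (log2 fold change 0.21, SE 0.04, limma adjusted p = 0.0335). It was called in 2 of the 10 alternatives (adjusted p 0.0307 to 0.125). POLR1A, the largest and catalytic subunit, had 9.80 and 9.81 FPKM with drug, against 8.83 and 8.62 FPKM in control. Its drug libraries were nearly equal and above both controls, but it missed the threshold narrowly (log2 fold change 0.15, 95% interval 0.06 to 0.24, limma adjusted p = 0.0533). DESeq2 on recovered reads called POLR1A, with an adjusted p of 0.0256.

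TCOF1, the treacle protein that links Pol I transcription to processing and is mutated in Treacher Collins syndrome, had 12.3 and 12.8 FPKM with drug, against 11.5 and 11.8 FPKM in control (limma adjusted p = 0.145). POLR1B, the other large subunit of the catalytic core, had 13.8 and 13.8 FPKM with drug, against 13.1 and 13.5 FPKM in control (limma adjusted p = 0.375). Neither overlapped between groups on FPKM as deposited, and neither passed the test. RRN3, which brings Pol I to its promoters, was below the filter in both groups, with 0.402 and 0.512 FPKM with drug and 0.398 and 0.463 FPKM in control, from 47 to 82 reads a library. Over all 6 genes the summed level was 86.6 and 86.3 FPKM with drug, against 75.1 and 76.1 FPKM in control.

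In the small subunit class, limma called 2 of 15 genes higher, BYSL and WDR43, against 7.78% of all genes tested. Both drug libraries were above both controls in 12, against 40.3% of all genes tested. BYSL encodes bystin, which is needed for late steps of small subunit maturation, and lies on chromosome 6 from 41921188 to 41933046 on the plus strand. It had 27.2 and 26.8 FPKM with drug, against 22.7 and 24.0 FPKM in control. The groups were apart by more than the spread of the controls, the wider of the 2 pairs. The mean was 15.9% higher with drug (log2 fold change 0.21, SE 0.04, limma adjusted p = 0.0303). BYSL was called in 3 of the 10 alternatives (adjusted p 0.0305 to 0.114).

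WDR43 is part of the complex that first binds the precursor and couples its transcription to its processing. Its levels were 45.6 and 45.7 FPKM with drug, against 41.9 and 41.7 FPKM in control. Each pair of replicates was almost level, and the mean was 9.17% higher with drug (log2 fold change 0.12, SE 0.02, limma adjusted p = 0.0378). WDR43 was called in 1 of the 10 alternatives, the pseudocount of 0.1, and not with TMM, edgeR, DESeq2, the replicate block or any library left out (adjusted p 0.0393 to 0.183). Of the same complex, UTP15 had 8.79 and 8.77 FPKM with drug, against 7.64 and 8.07 FPKM in control, without overlap (limma adjusted p = 0.0828). WDR75 had 31.8 and 30.7 FPKM with drug, against 31.0 and 30.4 FPKM in control, and HEATR1 had 25.9 and 24.6 FPKM with drug, against 24.9 and 25.6 FPKM in control. Both overlapped between groups, and members of 1 complex thus ranged in log2 fold change between 0.00 (HEATR1) and 0.35 (UTP4).

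UTP4, also of that complex, had the largest log2 fold change of the set without passing the test. Its levels were 6.26 and 9.0 FPKM with drug, against 5.36 and 6.04 FPKM in control. The first drug library stood next to the controls and the other well above, so the difference rests on drug library 2 (log2 fold change 0.35, 95% interval -0.05 to 0.75, limma adjusted p = 0.196). Without drug library 1 the log2 fold change was 0.58 and was called (adjusted p = 0.0426), and without drug library 2 it was 0.12 (adjusted p = 0.439).

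The other 9 small subunit factors were not called. In the nucleolar stage, UTP20, which is needed for early cleavage, had 16.7 and 16.6 FPKM with drug, against 15.5 and 15.3 FPKM in control. RRP12, which takes part in subunit maturation and export, had 12.5 and 13.1 FPKM with drug, against 11.9 and 11.8 FPKM in control. Neither gene overlapped between groups (limma adjusted p = 0.0749 for UTP20 and 0.122 for RRP12). The small nucleolar ribonucleoprotein component RRP9, the RNA helicase DDX10 and the RNA acetyltransferase NAT10 had log2 fold changes of 0.08, 0.09 and 0.06, each with both drug libraries above both controls. NOP14, a scaffold of the early particle, was the sole small subunit factor with a negative value (log2 fold change -0.05), and its groups overlapped at 18.4 and 19.2 FPKM with drug and 19.98 and 19.09 FPKM in control.

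Factors of the last, largely cytoplasmic steps were not called either. LTV1, which is released late in assembly, had 42.8 and 44.4 FPKM with drug, against 40.1 and 40.8 FPKM in control (limma adjusted p = 0.0865). NOB1, the nuclease that makes the final cut of the small subunit RNA, had 20.4 and 21.6 FPKM with drug, against 19.5 and 18.9 FPKM in control (limma adjusted p = 0.101). TSR1, a GTPase-like factor of the late particle, had 26.0 and 25.2 FPKM with drug, against 24.4 and 24.2 FPKM in control (limma adjusted p = 0.162). All 3 had both drug libraries above both controls, and none passed the test.

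In the large subunit class, limma called 2 of 12 tested genes higher, NOP16 and EBNA1BP2, against 7.78% of all genes tested. Both drug libraries were above both controls in 9, against 40.3% of all genes tested. NOP16, a nucleolar assembly factor, had 24.3 and 25.1 FPKM with drug, against 21.9 and 22.1 FPKM in control. The mean was 12.3% higher with drug and the groups were apart (log2 fold change 0.16, SE 0.03, limma adjusted p = 0.0344). EBNA1BP2, an assembly factor of the early large particle, had 34.7 and 35.7 FPKM with drug, against 31.8 and 32.1 FPKM in control. Here too the groups were apart, with a mean 10.2% higher with drug (log2 fold change 0.14, SE 0.03, limma adjusted p = 0.0432). Of the 10 alternatives, NOP16 was called in 2 (adjusted p 0.0341 to 0.182) and EBNA1BP2 in 1, the pseudocount of 0.1 (adjusted p 0.0439 to 0.182).

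PES1, BOP1 and WDR12 form 1 complex that is needed to process the large subunit RNA, and the 3 did not pass the test. BOP1 had 14.9 and 15.1 FPKM with drug, against 13.3 and 13.9 FPKM in control (limma adjusted p = 0.0815). WDR12 had 15.1 and 15.2 FPKM with drug, against 13.8 and 14.9 FPKM in control (limma adjusted p = 0.298). PES1 had 27.0 and 27.5 FPKM with drug, against 26.2 and 27.1 FPKM in control (limma adjusted p = 0.519), and its groups overlapped while those of the other 2 did not.

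MRTO4, which holds a place on the particle until the ribosomal stalk is built, had 39.3 and 42.1 FPKM with drug, against 34.8 and 37.3 FPKM in control. Its groups were apart, but with a wider spread than NOP16 within each, and it was not called (log2 fold change 0.17, SE 0.05, limma adjusted p = 0.0854). GNL2, a GTPase of nuclear export, had 21.2 and 21.9 FPKM with drug, against 20.1 and 19.1 FPKM in control (limma adjusted p = 0.0922). The stem cell GTPase GNL3 (nucleostemin), NIP7, the helicase DDX18 and RRS1 had log2 fold changes of 0.05, 0.09, 0.04 and 0.05, and RRS1 overlapped between groups. RRP1B was the sole tested member of the class with both drug libraries below both controls, at 30.4 and 30.6 FPKM with drug, against 30.7 and 31.7 FPKM in control (limma adjusted p = 0.490).

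NOP2, a methyltransferase of large subunit RNA, was nearly absent from the values, with 0.217 and 0.292 FPKM with drug and 0.239 and 0.111 FPKM in control, from 20 to 53 reads a library. It lies on chromosome 12 from 6556863 to 6568691, and in GENCODE 29 another protein-coding gene on the same strand, AC006064.6, covers 54.4% of its exon bases. AC006064.6 is not analysed here, and its part in the low value was not tested.

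The 5 multifunctional nucleolar proteins included the 3 highest levels of the set (NPM1, NCL and NOLC1) and had the smallest class median. By limma, edgeR or DESeq2, 0 of the 5 were called in either direction. Over all genes tested, the shares higher and lower were 7.78% and 6.02% by limma, 8.37% and 11.0% by edgeR, and 6.81% and 9.84% by DESeq2. At an unadjusted p under 0.05 limma gave 2 of the 5 higher, against 21.0% of all genes tested. The median log2 fold change of the 5 was 0.04, which is also that of all genes tested. NPM1, a histone and ribosome chaperone, had 282 and 262 FPKM with drug, against 258 and 269 FPKM in control. NCL (nucleolin) had 148 and 150 FPKM with drug, against 140 and 142 FPKM in control (limma adjusted p = 0.107). NCL was apart between groups and NPM1 was not.

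NOLC1, a chaperone of small nucleolar ribonucleoproteins, had 112 and 118 FPKM with drug, on either side of 115 and 115 FPKM in control. DDX21, a helicase that acts in both Pol I transcription and processing, had 59.3 and 59.3 FPKM with drug, against 60.6 and 61.6 FPKM in control. Both drug libraries were below both controls in DDX21, with a difference in means of -2.88%, which was not called (limma adjusted p = 0.309). MYBBP1A, a nucleolar protein that also binds transcription factors, had 17.3 and 18.6 FPKM with drug, against 15.97 and 16.28 FPKM in control (limma adjusted p = 0.0927). MYBBP1A had the lowest level of this class and the largest log2 fold change in it, 0.14.

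**Figure D3:**
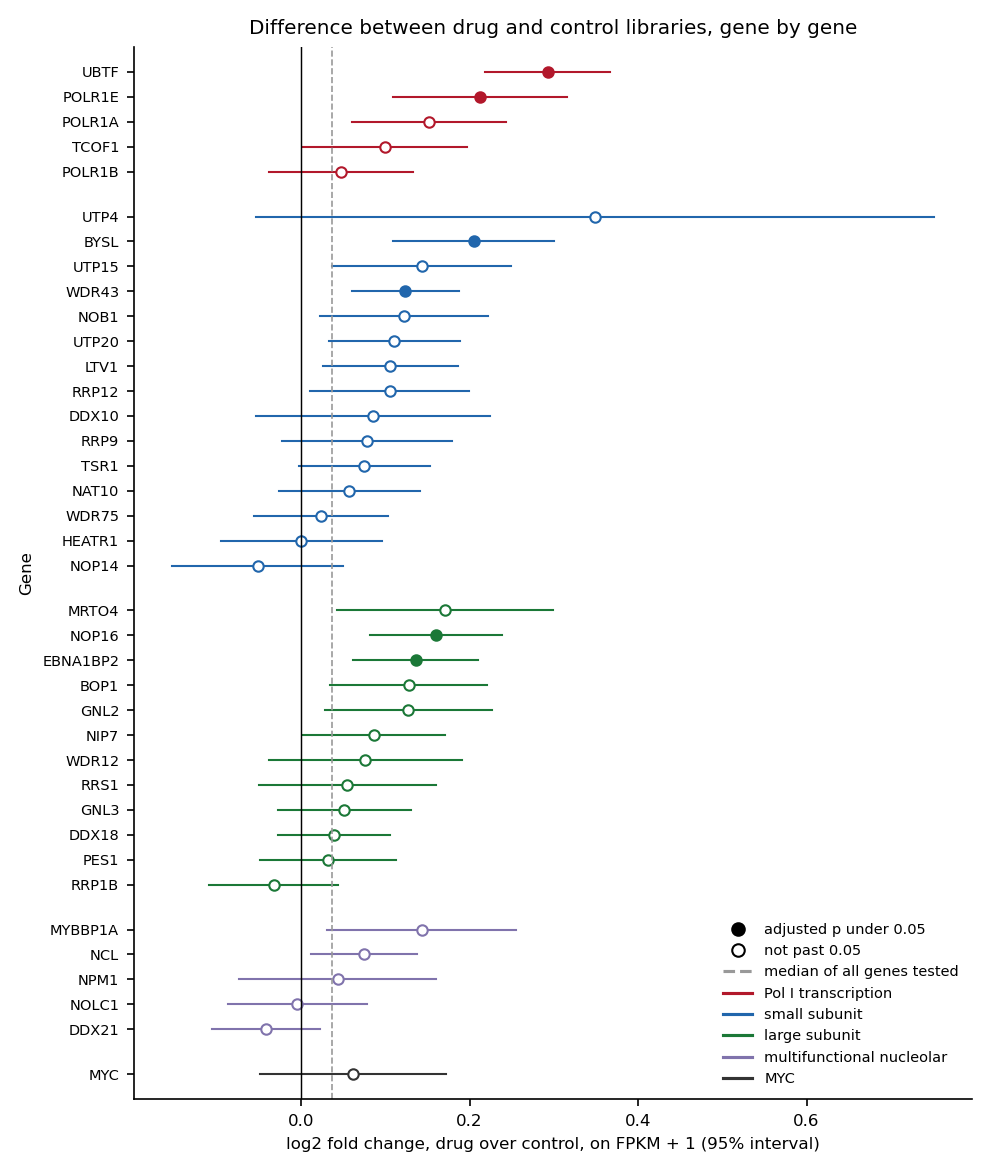
Log2 fold change of drug over control on the FPKM + 1 scale for the 38 genes tested, with 95% intervals from limma; filled points passed an adjusted p of 0.05, and the dashed line is the median of all genes tested (0.04). The intervals of 19 genes lie wholly above 0, while 6 genes passed after adjustment over all genes, and UTP4 has the widest interval.

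MYC itself had 20.9 and 22.3 FPKM with drug, against 21.1 and 20.2 FPKM in control. One drug library lay between the 2 controls, and the difference was not called (log2 fold change 0.06, 95% interval -0.05 to 0.17, limma adjusted p = 0.374). The interval leaves out a rise as large as that of UBTF. By level, MYC stood among the assembly factors and below NPM1, NCL and NOLC1 (mean 21.6 FPKM with drug and 20.6 FPKM in control).

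Around MYC, 10 of 12 listed partners and rivals were tested, and limma called 0 higher (2 at an unadjusted p under 0.05, 1 by edgeR and 0 by DESeq2) and 1 lower. MXI1, which pairs with MAX and opposes MYC, had 5.39 and 6.06 FPKM with drug, against 8.30 and 7.22 FPKM in control (log2 fold change -0.38, limma adjusted p = 0.0434). Its mean fell by 26.2%, and both drug libraries were below both controls. Known MYC targets outside ribosome production went both ways, with 2 higher and 2 lower of 16 tested and a median log2 fold change of 0.04. Of all genes tested, limma called 7.78% higher and 6.02% lower. The share higher was 21.0% by limma at an unadjusted p under 0.05, 8.37% by edgeR and 6.81% by DESeq2.

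Among these targets, ODC1, which starts polyamine synthesis, had 534 and 527 FPKM with drug, against 427 and 417 FPKM in control (log2 fold change 0.33, limma adjusted p = 0.00463). SRM, the next enzyme of that pathway, had 65.9 and 67.4 FPKM with drug, against 57.0 and 58.1 FPKM in control (log2 fold change 0.21, limma adjusted p = 0.0140). The 2 polyamine enzymes were thus both higher and apart from control. TFRC, the transferrin receptor, had 104 and 101 FPKM with drug, against 133 and 131 FPKM in control (log2 fold change -0.36, limma adjusted p = 0.00381). SHMT2, a mitochondrial enzyme of serine metabolism, had 23.9 and 24.9 FPKM with drug, against 28.8 and 30.5 FPKM in control (log2 fold change -0.27, limma adjusted p = 0.0206).

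Genes of the same pathway outside the set were read from the same fit. Of 15 tested Pol I subunits and factors, 0 were called in either direction by limma, edgeR or DESeq2. At an unadjusted p under 0.05 limma gave 3 of the 15 higher and 0 lower (21.0% and 12.1% of all genes tested). The median log2 fold change of the 15 was 0.06. Of 37 tested small subunit factors, 5 were higher and 1 lower by limma, with a median of 0.08. Of all genes tested, limma called 7.78% higher and 6.02% lower. By edgeR 4 of the 37 were higher and 1 lower (8.37% and 11.0% of all genes tested). By DESeq2 2 were higher and 1 lower (6.81% and 9.84%). UTP23, a nuclease-like factor, had 6.47 and 6.45 FPKM with drug, against 5.0 and 5.55 FPKM in control, and the late kinase RIOK1 had 21.4 and 20.4 FPKM with drug, against 18.2 and 17.6 FPKM in control. RIOK2, another late kinase, had 9.88 and 10.2 FPKM with drug, against 8.57 and 8.85 FPKM in control. These 3 were apart between groups, with limma adjusted p of 0.0474 for UTP23, 0.0305 for RIOK1 and 0.0411 for RIOK2. The helicase DDX52 was the 1 lower, at 1.253 and 1.058 FPKM with drug, against 1.90 and 1.82 FPKM in control, and was named after its values were seen.

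Of 44 tested large subunit factors outside the set, 7 were higher and 0 lower by limma, with a median of 0.10. Of all genes tested, limma called 7.78% higher and 6.02% lower. At an unadjusted p under 0.05 limma gave 21 higher and 2 lower (21.0% and 12.1% of all genes tested). By edgeR 8 of the 44 were higher and 1 lower (8.37% and 11.0% of all genes tested). By DESeq2 5 were higher and 1 lower (6.81% and 9.84%). EFL1, the GTPase that releases the anti-association factor from new large subunits, had 7.51 and 7.64 FPKM with drug, against 5.88 and 5.96 FPKM in control (limma adjusted p = 0.0122). SBDS, the partner of EFL1 and the gene mutated in Shwachman-Diamond syndrome, had 61.1 and 61.0 FPKM with drug, against 54.3 and 55.8 FPKM in control (limma adjusted p = 0.0303). SBDS was named after its values were seen. Both partners were thus above control in both drug libraries, by 28.0% for EFL1 and 10.9% for SBDS.

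URB1, an early assembly factor, had 9.64 and 10.3 FPKM with drug, against 8.24 and 8.52 FPKM in control, and RRP15 had 10.6 and 10.3 FPKM with drug, against 9.04 and 8.97 FPKM in control. Both passed (limma adjusted p = 0.0395 for URB1 and 0.0297 for RRP15). PAK1IP1, named after its values were seen, had 43.7 and 29.8 FPKM with drug, against 5.09 and 14.6 FPKM in control. Its control libraries differed by more than 2 times, and it was not called by limma (log2 fold change 1.93, adjusted p = 0.0554). Such a gap between replicates was found in 328 of 11227 genes tested (2.92%), and in 0 of the 38 genes of the set.

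Set side by side, the classes stood in the order Pol I, small subunit, large subunit and multifunctional, with median log2 fold changes of 0.15, 0.11, 0.08 and 0.04. Each tested gene's log2 levels were centred on their mean over the 4 libraries and the class median was taken in each library. These medians were 0.08 and 0.08 with drug against -0.07 and -0.09 in control for Pol I, and 0.04 and 0.06 with drug against -0.05 and -0.04 in control for the small subunit. For the large subunit they were 0.04 and 0.05 with drug against -0.06 and -0.03 in control. For the multifunctional class they were 0.02 and 0.03 with drug against -0.05 and 0.00 in control.

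In every class the 2 drug medians were above the 2 control medians on FPKM as deposited, and the SD between replicates of a class median was 0.01 to 0.03. The medians per library were not recomputed after TMM scaling, which lowered the multifunctional median log2 fold change from 0.044 to 0.015. The order Pol I, small subunit, large subunit, multifunctional held in all 11 analyses, the reported one included, which share the same libraries and genes. Without control replicate 2 the small and large subunit medians were nearly equal, at 0.101 and 0.099. In the lists outside the set the order was the reverse. Their medians were 0.06 for other Pol I genes, 0.08 for other small subunit factors and 0.10 for other large subunit factors. The difference between classes was not tested, and the Pol I median rests on 5 genes. Rescaling with TMM factors or fitting recovered reads lowered the median of all genes tested to 0.01 and 0.00 and that of the 38 genes to 0.06, while the distance between them was 0.05 to 0.06 on the log2 scale.

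**Figure D4:**
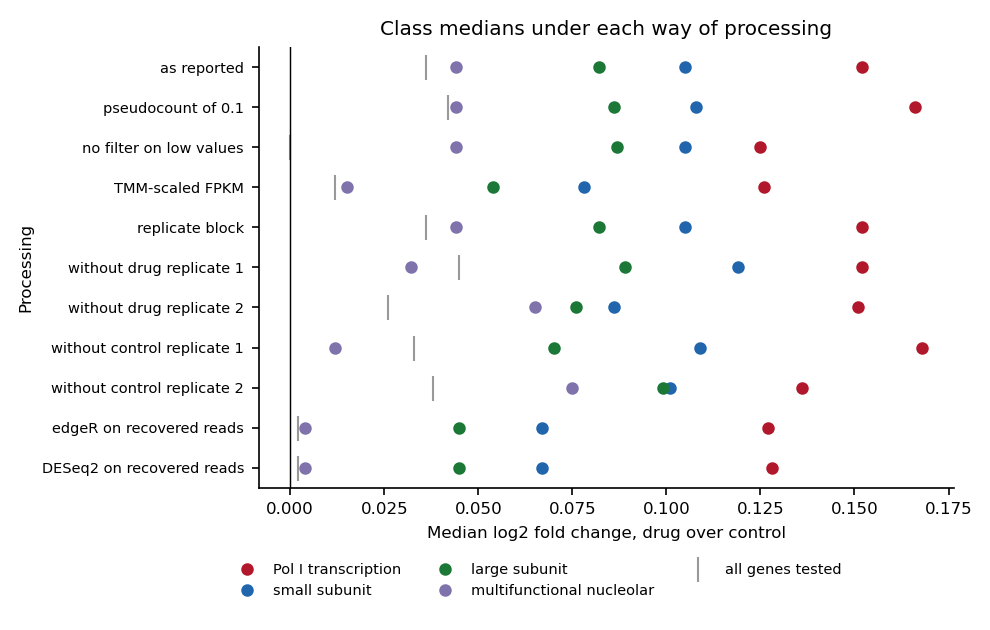
Median log2 fold change of drug over control for each class under the reported processing and 10 alternatives, with grey ticks for the median of all genes tested. Pol I genes lie rightmost and the multifunctional class leftmost of the 4 classes in every row, and the multifunctional median is below that of all genes tested without drug replicate 1 and without control replicate 1.

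How many of the calls held depended on the test. In the authors' deposited table, 2 of the 40 genes had an adjusted p under 0.05 and a higher value with drug (UBTF and POLR1A), and 0 were lower, while 3.18% of its 26603 genes were higher and 4.03% lower by that rule. Of the 6 genes called by limma, 1 (UBTF) was also called there. With TMM-scaled FPKM, UBTF alone was called (4.89% of all genes tested were higher), and edgeR on recovered reads called UBTF, POLR1E, BYSL and NOP16 (8.37% of all genes tested were higher). DESeq2 called UBTF and POLR1A. With 1 library left out, which leaves 1 library in a group, the log2 fold change of UBTF was between 0.28 and 0.31.

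Several of these genes share bases or sequence with others. The shares of exon bases are from GENCODE 29. It lacks 1512 of the 26603 gene identifiers of these data, so the exons that were counted may differ. Whether counting used strand is not given in the sources used here, and some share exon bases with a gene on the opposite strand, among them HEATR1 (23.2% of its exon bases, with LGALS8), TSR1 (20.7%, with SRR), NIP7 (20.2%, with COG8), NOB1 (20.2%, with an antisense transcript), EBNA1BP2 (18.8%, with CFAP57) and NOP16 (12% with ARL10 and 7.93% with HIGD2A). Of these partners HIGD2A had levels above those of NOP16, 35.2 and 34.4 FPKM with drug and 30.2 and 34.9 FPKM in control, while CFAP57 and ARL10 stayed under 0.4 FPKM. On the same strand, LTV1 shares 27.7% of its exon bases with AL049844.3, which is not analysed here. NPM1 has 13 pseudogenes in the table, of which NPM1P27 had 73.5 and 72.5 FPKM with drug, against 72.8 and 66.6 FPKM in control, and how reads shared by the parent and its copies were counted is not given. The part of these overlaps in the results was not tested.

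The set also carries small nucleolar RNA genes. In GENCODE 29, such genes lie on the same strand within 4 of the 38 tested genes (10.5%), WDR43, NCL, GNL3 and TSR1, against 174 of 9653 tested protein-coding genes (1.80%). GNL3 has 6, WDR43 and NCL have 3 each and TSR1 has 2. The genes lie on 15 chromosomes, and UTP4, NIP7 and NOB1 sit within 1 stretch of chromosome 16 between 69131291 and 69754940.

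Recovered reads totalled 40279560 and 38685856 in the drug libraries, against 28526098 and 38611635 in control, so control library 1 was the shallowest. Across genes, which are not independent replicates, drug libraries correlated at 0.992 and control libraries at 0.993, against 0.986 to 0.987 between groups. Of 9 hepatocyte and epithelial markers, KRT8, KRT18 and HNF4A were called higher and ALB and APOA1 lower, and TTR and APOB were at or near 0 in all libraries. The summed level of this list was 444 and 465 FPKM with drug, against 341 and 354 FPKM in control, and most of it was KRT8 and KRT18. KRT8 had 171 and 180 FPKM with drug, against 130 and 137 FPKM in control. KRT18 had 221 and 233 FPKM with drug, against 157.5 and 163.6 FPKM in control. Means changed by -58.8% for ALB, -14.4% for APOA1 and 13.8% for HNF4A, so the sum does not describe the list's liver genes. The part of these markers in the results on ribosome genes was not tested. Of 6 leukocyte, endothelial and fibroblast markers in the table, PECAM1 alone reached 1 FPKM (2.09 and 2.23 with drug, 4.66 and 4.11 in control), and the list summed to 2.16 and 2.43 FPKM with drug, against 4.93 and 4.34 FPKM in control.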

How the data were processed

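Per the labels' protocols, trizol was used for RNA extraction and the Illumina guide for TruSeq stranded mRNA for the libraries. The build was hg38 and demultiplexing used bcl2fastq, per the submitters' processing notes; aligner, counter, annotation and the authors' test were not given in the sources used here. Each of the 4 per-library columns holds deposited FPKM, a unit read from the values because the header names none. The deposited group columns hold the authors' mean normalized read counts, a signal of reads divided by size factors. Log2 fold changes and p-values in the same table are the authors' own, per the file headers. No per-sample column was left unused (0).

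Whole reads were recovered from FPKM and group means (100% of values within 0.1 read). Limma 3.58.1 was fitted with a pseudocount of 1, without a replicate block; edgeR 4.0.16 on these reads called 940 genes higher and 1233 lower. Alternatives were a pseudocount of 0.1, no filter, TMM scaling, a replicate block, each library left out, edgeR and DESeq2 1.42.0. Read recovery and the limma and edgeR fits were also run on simulated data. The simulated counts for the fits had the same dispersion for every gene, so no result on these libraries is drawn from them. Members and gene lists were chosen with earlier results of these data known. All 40 genes were named; of each further list, up to 3 genes per direction, with a mean of at least 2 FPKM and groups apart, in order of fold change. TBL3, AATF, NOC4L, SURF6, PTPRC and ACTA2 are not analysed here. Outlying samples cannot be tested in groups of 2. Software was matplotlib 3.10.9, pandas 2.3.3 and numpy 2.4.6 on Python 3.11.15, with R 4.3.3; GENCODE 29 holds all 40 genes.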

Additional observations from a re-analysis of the deposited data

How the results depend on the processing

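The 38 tested genes had at least 830 recovered reads in each library, and RRN3 and NOP2, with 20 to 82, were too low to test. Of the calls, UBTF alone was kept under every alternative. The count of the set called higher was 6, against 1 without the filter on low values, 1 with TMM-scaled FPKM, 2 with the replicate block and 2 with DESeq2; leaving out 1 library gave 1 to 2. Under the replicate block, limma called UBTF (adjusted p = 0.0257) and MRTO4 (adjusted p = 0.0451). POLR1E, BYSL, WDR43, NOP16 and EBNA1BP2 were not called there (limma adjusted p 0.0594 to 0.071), with log2 fold changes unchanged. The labels do not say whether libraries of the same number are pairs. Same-number deviations correlated at 0.028 across genes, which over 2 pairs cannot exclude pairing. Over all genes, 873 higher and 676 lower became 170 and 214 without the filter, 549 higher with TMM, 474 higher with the block (451 lower), 1233 lower with edgeR and 1105 lower with DESeq2, and 167 to 298 higher and 253 to 315 lower without 1 library. The cause was not tested; leaving out a library also leaves fewer samples.

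Medians on the log2 scale were lower under TMM, edgeR and DESeq2: 0.061, 0.059 and 0.058 for the set, 0.126, 0.127 and 0.128 for Pol I, 0.078, 0.067 and 0.067 for the small subunit, 0.054, 0.045 and 0.045 for the large subunit, and 0.015, 0.004 and 0.004 for the multifunctional class. For Pol I the median was 0.166 with a pseudocount of 0.1 and 0.125 without the filter, which adds RRN3. Without 1 library the medians ran between 0.078 and 0.106 for the set, 0.136 and 0.168 for Pol I, 0.086 and 0.119 for the small subunit, 0.07 and 0.099 for the large subunit, and 0.012 and 0.075 for the multifunctional class.

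The sign turned in 6 of 38 genes, none of them called. With TMM, edgeR and DESeq2, HEATR1 was at -0.028, -0.04 and -0.04 and WDR75 at -0.004, -0.016 and -0.015. With edgeR and DESeq2, PES1 was at -0.008 in both and DDX18 at -0.001 in both. Without 1 library, HEATR1 ran between -0.037 and 0.037, NOLC1 between -0.04 and 0.032, and NPM1 between -0.011 and 0.098.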

Other observations

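In each library more genes had exactly 2 recovered reads than 1: 1933 and 1857 genes against 794 and 814 in the drug libraries, and 3014 and 3006 genes against 907 and 908 in control. Whether the counted unit was the fragment or the single read is not given in the sources used here. APEX1, a DNA repair enzyme on the list of MYC targets, was named after its values were seen: it had 3.30 and 42.3 FPKM with drug, against 3.42 and 13.7 FPKM in control, so its replicates differed more than its groups. DDX24, a helicase of the large subunit list, also named after its values were seen, had 0.425 and 0.508 FPKM with drug, against 1.70 and 0.346 FPKM in control.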
